A study of Mus musculus with 3 samples.

Results

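The caveolae genes described here are *Cav1*, *Cav2*, *Cavin1*, *Cavin2*, *Cavin3*, *Ehd2* and *Pacsin2*. They were taken by name as genes for proteins of caveolae, with earlier results of these data already known. All 7 were found under these symbols among the 31053 genes of the count table. Caveolae are flask-shaped pits of the plasma membrane that take part in endocytosis, signaling and the response of cells to stretch. Caveolins, among which CAV1 is required for caveolae in most tissues and CAV2 pairs with it, lie in the membrane of the pit, and cavins coat it from the cytosol, with CAVIN1 as the required member. EHD2 is an ATPase that gathers at the neck of the pit and PACSIN2 is a membrane-bending protein of the F-BAR family. Endothelial and smooth muscle cells are known for many caveolae, and both the Schlemm's canal (SC) and the trabecular meshwork (TM), through which aqueous humor leaves the eye, carry them.

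Cells from the limbus and iridocorneal angle of mice aged 6 weeks were measured one by one in 3 droplet libraries. The 2 control libraries (control replicates 1 and 2) came from *Angpt1* flox/flox mice and the only *Angpt1*ΔNC library from *Angpt1* flox/flox;*Wnt1*Cre+ mice, in which Cre under *Wnt1* sequences deletes *Angpt1* in the neural crest lineage. Every animal therefore carried the floxed allele, and the controls differed in lacking Cre. For each library eyes from 2 to 3 mice were pooled, of a mixed strain that had been crossed onto ICR for 2 generations to obtain albino litters. Pools, rather than cells, are the replicates, and with a single *Angpt1*ΔNC pool, genotype and pool cannot be told apart.

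After the filters of the authors 9076, 10160 and 6772 cells remained in control replicate 1, control replicate 2 and *Angpt1*ΔNC, with a median of 6329.5, 6393.5 and 7444 unique molecular identifiers (UMIs) per cell. *Angpt1* itself stood at 37.8 and 39.3 UMIs per 1000000 in the controls and at 0.391 in *Angpt1*ΔNC. *Xist*, which is transcribed from the inactive X chromosome, stood at 0.0390 and 0.0249 UMIs per 1000000 in the controls and at 652 in *Angpt1*ΔNC, although the labels give both sexes for every pool, so male-typed cells were also compared alone. Between 13 and 25 cell barcodes were shared by a pair of libraries, of which 1 in each pair carried the same cell label in both. The cells were grouped by the 35 deposited labels. The authors give clusters 19, 20 and 21 as smooth muscle, pericytes and vascular smooth muscle, clusters 4 and 5 as limbal and corneal epithelium, clusters 8 and 9 as melanocytes, cluster 1 as retinal pigment epithelium, cluster 22 as lymphocytes and clusters 23 to 25 as monocytes. Clusters 19 to 21 are called mural here, although the authors do not give the smooth muscle of cluster 19 as vascular. Endothelial labels are SC, a lymphatic label (LEC) and the blood endothelial labels EC2 to EC4, and TM1 to TM11 are the subclusters of the cells the authors took as putative TM. Of these the authors describe TM1 as keratinocytes, TM2 as corneal endothelium, and TM4 and TM5 as labels with TM markers. They interpret TM6 to TM9 as uveal cells, among which TM7 may belong with the TM. For TM10 they propose corneal stroma, and they liken TM11 to beam cells of the TM. The term TM labels is used here for all of TM1 to TM11, whether or not the authors place them in the TM. The epithelial markers *Krt5*, *Krt12*, *Krt14*, *Epcam* and *Pax6* summed to 0.678, 0.603 and 0.742 UMIs per 10,000 in TM1 to TM11 together. In clusters 4 and 5 they summed to 252, 221 and 191. SC held 46, 63 and 15 cells in the 3 libraries, and LEC only 3, 1 and 12. All 5 endothelial markers looked for (*Cdh5*, *Pecam1*, *Tie1*, *Emcn* and *Egfl7*) were found in SC, with a summed level of 40.0, 37.4 and 33.2 UMIs per 10,000. The 5 SC markers (*Prox1*, *Ccl21a*, *Flt4*, *Tek* and *Nupr1*) summed to 129, 111 and 60.5 there, and to more in LEC, at 466, 274 and 245. The LEC markers (*Lyve1*, *Pdpn*, *Prox1*, *Mmrn1* and *Reln*) summed to 1.93, 1.74 and 0.887 in SC and to 53.4, 35.3 and 39.3 in LEC.

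*Cav1* and *Cav2* lie side by side on mouse chromosome 6 (GRCm38, GENCODE M21), both on the plus strand. *Cav2* spans chr6:17281185-17289115 and *Cav1* chr6:17306335-17341452, with 17219 bp between the end of one and the start of the other. *Cavin1* lies at chr11:100956733-100970887 (minus), *Cavin2* at chr1:51289126-51302960 (plus), *Cavin3* at chr7:105480083-105482300 (minus), *Ehd2* at chr7:15946958-15967567 (minus) and *Pacsin2* at chr15:83375607-83464606 (minus). The antisense gene *Gm15581* overlaps both *Cav1* and *Cav2*, and the antisense gene *9330175M20Rik* overlaps *Cavin2*, and Cell Ranger, which made the counts, assigns reads to genes by strand. The 3 promoters shown here belong to the neighbors *Cav1* and *Cav2*, which are set against each other further on, and to *Cavin2*, the gene that was at 0 in all libraries in the most labels. Each is written 5′ to 3′ from 250 bases before to 50 bases after an annotated RefSeq start (GRCm38.p6, plus strand), at chr6:17306085-17306384 for *Cav1*, chr6:17280935-17281234 for *Cav2* and chr1:51288876-51289175 for *Cavin2*. Capitals mark matches to the GC box GGGCGG, the motif CCAAT, the TATA box motif TATAAA, the AP-1 site TGANTCA or the ETS site CCGGAA, each searched on both strands.
Cav1: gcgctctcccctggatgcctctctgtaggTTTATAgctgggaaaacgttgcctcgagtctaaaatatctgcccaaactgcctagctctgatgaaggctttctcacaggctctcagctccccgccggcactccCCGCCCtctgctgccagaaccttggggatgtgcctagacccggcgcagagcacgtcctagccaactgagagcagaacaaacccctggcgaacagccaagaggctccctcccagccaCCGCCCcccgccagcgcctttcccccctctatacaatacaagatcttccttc
Cav2: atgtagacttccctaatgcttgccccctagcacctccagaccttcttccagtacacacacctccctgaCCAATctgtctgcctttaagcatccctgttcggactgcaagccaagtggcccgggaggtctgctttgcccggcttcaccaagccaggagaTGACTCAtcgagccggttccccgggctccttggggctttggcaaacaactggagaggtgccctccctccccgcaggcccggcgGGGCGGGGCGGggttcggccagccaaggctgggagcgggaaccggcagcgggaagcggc
Cavin2: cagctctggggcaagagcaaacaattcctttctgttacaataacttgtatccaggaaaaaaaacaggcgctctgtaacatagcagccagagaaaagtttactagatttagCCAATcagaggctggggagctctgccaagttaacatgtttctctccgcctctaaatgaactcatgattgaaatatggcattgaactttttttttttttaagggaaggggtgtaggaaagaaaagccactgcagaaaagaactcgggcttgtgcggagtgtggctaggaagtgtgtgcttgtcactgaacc
The *Cav1* promoter held 2 GC boxes and 1 match to the TATA box letters. That match is on the other strand and near the end of the stretch farthest upstream of the start. The *Cav2* promoter held 2 GC boxes that overlap each other, 1 CCAAT box and 1 AP-1 site, and the *Cavin2* promoter 1 CCAAT box. Whether any of these matches is used was not tested. None of the 3 held the ETS letters. Of all 32851 promoters of this length, 35.7% held a GC box, 37.4% a CCAAT box, 13.6% a TATA box, 7.81% an AP-1 site and 14.9% an ETS site. A promoter entry was matched for 6 of the 7 genes.

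The first question was in which cells of the outflow region each gene was expressed. A level is the mean over the cells of a label of the UMIs per 10,000 UMIs of that cell, and it is set beside other levels of the same gene only. The labels were made from the expression of the same cells, so differences between labels are given as descriptions without a test.

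*Cav1*, the caveolin required for caveolae in endothelium, was highest in smooth muscle cluster 19, at 4.52, 4.498 and 4.84 UMIs per 10,000 in control replicate 1, control replicate 2 and *Angpt1*ΔNC. SC came next, with 2.61, 2.77 and 3.84. The libraries of cluster 19 lay above all those of SC. LEC stood at 3.76, 1.47 and 1.66, EC4 at 1.37, 1.74 and 1.94, EC2 at 1.13, 1.87 and 1.29 and EC3 at 0.988, 1.12 and 1.28. Among these labels, neighbors in the order overlapped between libraries, as did 31 of the 34 neighboring pairs over all labels. Outside endothelium and muscle, melanocyte cluster 8 carried 1.26, 1.09 and 1.06. The TM labels ranged from TM3, at 0.607, 0.926 and 1.03, down to TM6, which held 0.0520 in control replicate 1 and none in the other libraries.

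*Cav2*, the partner of *Cav1*, followed another order. Its level in LEC was 4.13, 0 and 0.389, which rests on the few cells of that label. EC3 stood at 1.18, 1.48 and 0.649 and EC4 at 1.37, 1.30 and 0.457, with the controls of both above *Angpt1*ΔNC. Melanocyte cluster 8 (1.05, 1.08 and 0.886) and corneal epithelial cluster 5 (0.954, 1.14 and 0.575) came before SC, which ranked 8 of 35 with 0.841, 0.577 and 0.994. In TM labels *Cav2* was low, from 0.217, 0.240 and 0.237 in TM5 downward.

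*Cavin1*, the required coat protein, reached a mean level of at least 1 in 17 labels. It was highest in cluster 19, at 3.19, 3.19 and 4.45, and in cluster 21, at 2.96, 3.66 and 3.25, which overlapped. TM10 (1.94, 1.75 and 1.94) stood above SC, which ranked 9 with 1.51, 1.36 and 1.49. *Cavin3*, which binds CAVIN1 in the coat, reached a mean level of 1 in 27 labels. It stood at 9.77, 8.19 and 11.1 in cluster 19, at 6.54, 7.27 and 3.82 in cluster 21 and at 5.22, 6.19 and 5.64 in SC. TM1 followed with 4.61, 4.61 and 5.38, so that for this gene TM1 overlapped SC. LEC held no *Cavin3* UMI in its 4 control cells and a level of 0.744 in *Angpt1*ΔNC. Monocyte clusters 23 and 24 were lowest, with no library above 0.121.

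*Cavin2*, a cavin that bends membrane and is known from endothelium and platelets, was highest in LEC, at 8.75, 2.94 and 5.83 on 6, 4 and 56 UMIs, and this label overlapped no other. Cluster 19 had 1.60, 1.39 and 1.07, EC2 1.25, 1.47 and 1.16, and SC, in rank 5, 0.959, 0.820 and 0.999. The other mural labels held next to none, with 0.0324, 0.0275 and 0 in pericyte cluster 20. No *Cavin2* UMI was found in any library in clusters 10, 18, 22 and 25. Retinal pigment epithelium (cluster 1), which held the lowest *Cav1* of all labels with 0.00259, 0 and 0, carried *Cavin2* at 0.394, 0.222 and 0.204.

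*Ehd2*, the neck ATPase, was highest in vascular smooth muscle cluster 21 with 1.68, 1.91 and 2.20, above every library of the next label. Cluster 19 had 1.25, 1.27 and 0.878, EC3 0.721, 1.06 and 1.51, pericyte cluster 20 1.05, 0.919 and 1.10, EC2 0.497, 0.870 and 1.66, and SC, in rank 8, 0.929, 0.907 and 0.704. Both melanocyte clusters, where *Cav1* and *Cav2* were among their higher levels, were low in *Ehd2*, at 0.0305 to 0.0509 in controls and 0.0264 to 0.0299 in *Angpt1*ΔNC. *Pacsin2*, the membrane-bending protein, showed the flattest order, since no label reached a mean of 1 and all 34 neighboring pairs of labels overlapped. Its levels were 0.858, 1.47 and 0.461 in LEC, 0.649, 0.540 and 0.705 in monocyte cluster 25 and 0.883, 0.502 and 0.349 in SC, which ranked 4.

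**Figure D1:**
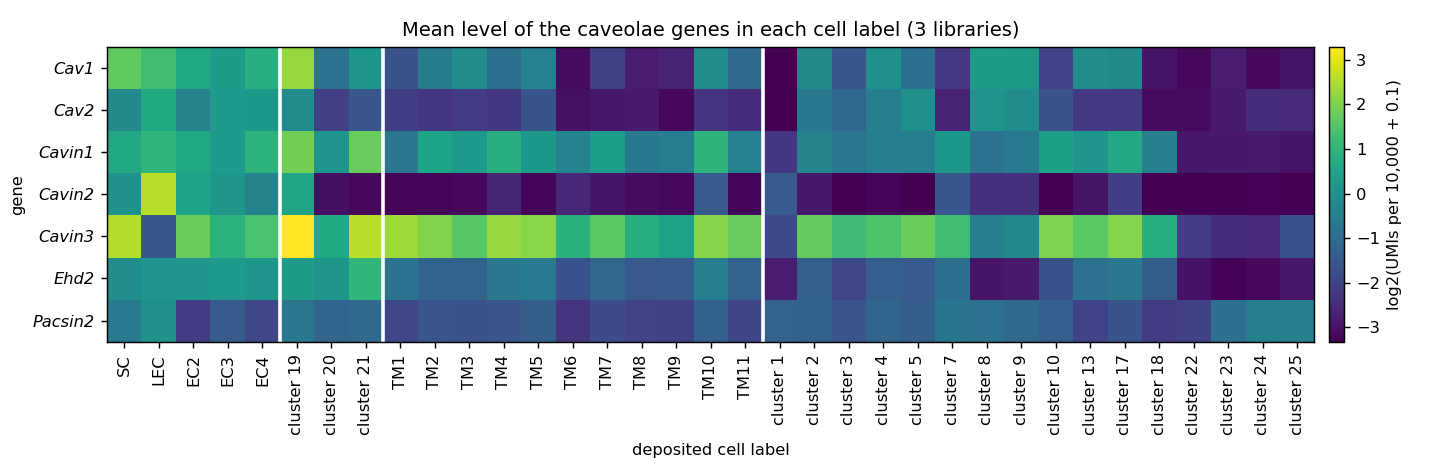
Mean level of each caveolae gene (one per line) over the 3 libraries in each deposited cell label (columns), as log2 of UMIs per 10,000 plus 0.1; white lines part endothelial, mural, TM and other labels. Cluster 19 is brightest for *Cav1*, *Cavin1* and *Cavin3*, *Cavin2* is bright in LEC and dark in most other labels, and *Pacsin2* varies least.

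Set against the blood endothelial labels EC2 to EC4 as a whole, 3 of the 7 genes were higher in SC in each of the 3 libraries. *Cav1* was 2.17-fold higher (log2 ratio 1.11 ± 0.19, SD, n = 3 libraries), *Cavin3* 2.38-fold (1.25 ± 0.19) and *Pacsin2* 2.61-fold (1.38 ± 0.38). The other 4 genes were not higher or lower in all libraries, with log2 ratios of -0.0099 ± 0.018 for *Cavin1*, 0.027 ± 0.45 for *Cavin2*, -0.31 ± 0.95 for *Cav2* and -0.28 ± 0.52 for *Ehd2*. The *Pacsin2* difference rests on few UMIs, 49, 49 and 6 in SC. After thinning each cell to 2000 UMIs, *Cav1* and *Cavin3* stayed higher in all 3 libraries, and *Pacsin2* had no UMI in the SC cells of *Angpt1*ΔNC.

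Set against TM1 to TM11 as a whole, all 7 genes were higher in SC in each library. The ratio was widest for *Cavin2* (23.0-fold, log2 ratio 4.52 ± 0.15), *Cav2* (11.03-fold, 3.46 ± 0.53) and *Cav1* (9.33-fold, 3.22 ± 0.35). It was 2.70-fold for *Pacsin2*, 2.21-fold for *Ehd2*, 1.81-fold for *Cavin3* and 1.36-fold for *Cavin1*. In TM labels *Cavin1* and *Cavin3* were thus near their SC levels where *Cav1*, *Cav2* and *Cavin2* were not. This does not hold for each TM label alone. In TM4 *Cavin1* stood at 1.64, 1.47 and 1.99, above SC in every library. *Cavin3* stood there at 5.43, 4.82 and 3.84, above SC in control replicate 1 only. Without TM1 and TM2 all 7 were again higher in SC in each library, with log2 ratios of 4.25 ± 0.14 for *Cavin2*, 3.67 ± 0.59 for *Cav2* and 3.39 ± 0.30 for *Cav1*. With cells thinned to 2000 UMIs, 4 of the 7 (*Cav1*, *Cav2*, *Cavin2* and *Cavin3*) were higher in each library.

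**Figure D2:**
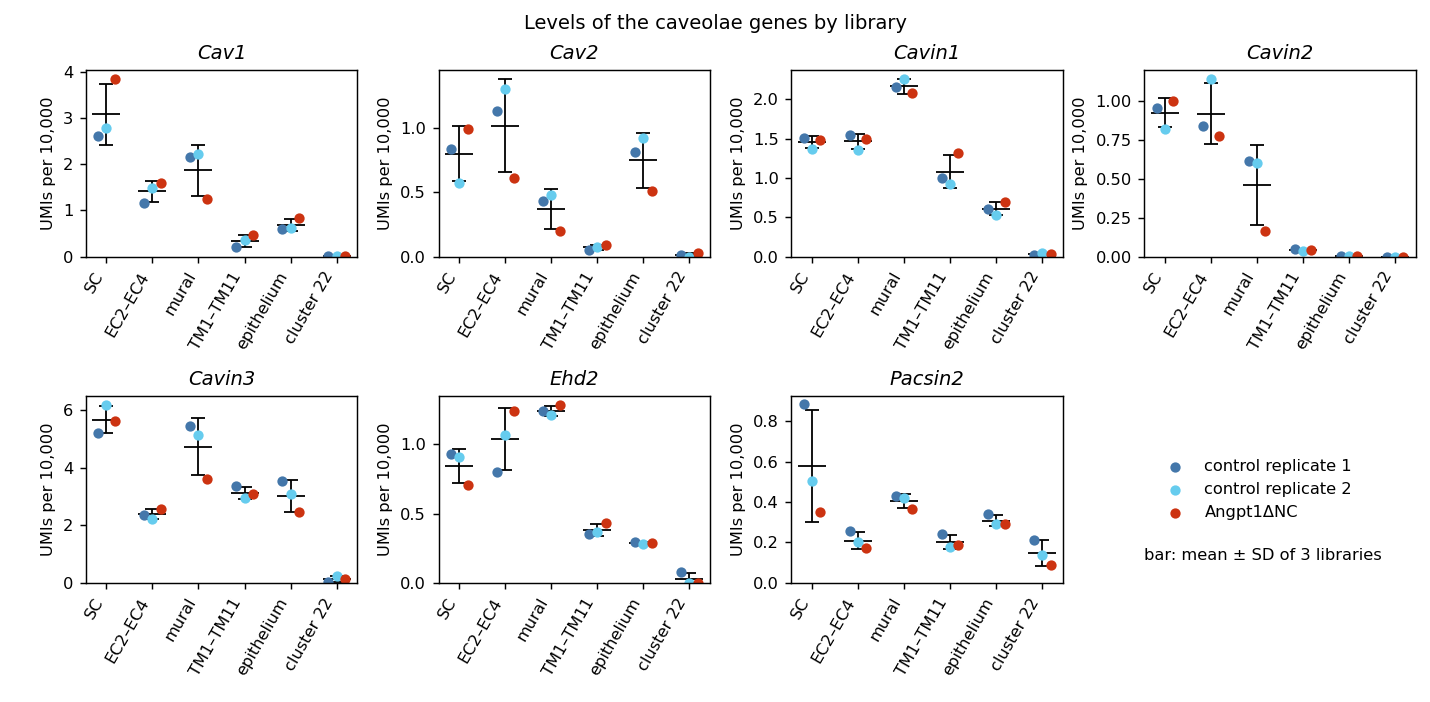
Level of each caveolae gene (vertical axis, UMIs per 10,000, from 0) in SC, EC2 to EC4, mural labels, TM1 to TM11, epithelium (clusters 4 and 5) and cluster 22; points are libraries and bars the mean ± SD of the 3. All 3 SC points of *Cav1* lie above those of EC2 to EC4, and the mural points of *Cav1*, *Cav2* and *Cavin2* are lower in *Angpt1*ΔNC than in both controls.

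Among single SC cells, at least 1 UMI of *Cav1* was found in 73.9% in control replicate 1 (34 of 46 cells, exact 95% Clopper-Pearson interval 58.9 to 85.7%), in 77.8% in control replicate 2 (49 of 63, 65.5 to 87.3%) and in 80.0% in *Angpt1*ΔNC (12 of 15, 51.9 to 95.7%). The intervals of the 3 libraries overlap and cover counting error only. *Cavin3* was found in 93.5, 81.0 and 73.3% of SC cells, *Cavin1* in 76.1, 55.6 and 66.7%, and *Ehd2* in 52.2, 52.4 and 40.0%. *Cav2* was found in 52.2, 34.9 and 46.7%, *Cavin2* in 47.8, 46.0 and 46.7% and *Pacsin2* in 52.2, 33.3 and 26.7%. As the background of free RNA, lymphocyte cluster 22 held 1.12, 0.752 and 0.952% of cells with a *Cav1* UMI, and at most 3.81% for any gene but *Pacsin2*. *Pacsin2* was not taken to be absent from lymphocytes, so its 6.74, 3.76 and 3.81% there are not a background. No *Cavin2* UMI was found in the 89, 133 and 105 cells of cluster 22, which allows shares of up to 3.37, 2.26 and 2.86%. The SC cells were deeper, with a median of 8895, 6943 and 6505 UMIs against 2267, 2500 and 2531. Thinned to 2000 UMIs, *Cav1* was found in 30.4, 45 and 33.3% of SC cells. An SC cell held UMIs of a median of 5, 4 and 3 of the 7 genes. Of the 124 SC cells, 74 held at least 4 of the genes, 16 all 7 and 4 none, whereas 299 of the 327 cells of cluster 22 held none. *Cav1* and *Cavin1*, both required for the pit, were found together in 66 of the 124 SC cells, *Cav1* alone in 29, *Cavin1* alone in 14 and neither in 15. Levels varied widely between SC cells, with quartiles of *Cav1* at 0.889, 2.39 and 4.04 UMIs per 10,000 and a highest cell at 16.8.

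Across the 35 labels, the levels of some of the genes rose and fell together and those of others did not. Over the 21 pairs, Pearson's r of log2(level + 0.1) ran from -0.32 (*Cavin3* and *Pacsin2*) through a median of 0.45 to 0.87 (*Cavin1* and *Ehd2*). It was 0.81 for *Cav1* and *Cav2* and for *Cavin1* and *Cavin3*, and 0.05 for *Cavin2* and *Cavin3*. Over the 32 labels with at least 20 cells in every library, which leave out LEC, r was 0.76, 0.90 and 0.29 for these pairs. The labels share libraries and free RNA, so r is a description and carries no p. Of the 7658 genes compared, *Cav2* was the gene most like *Cav1* (0.81), followed by *Sp1* (0.79) and *Rad23b* (0.79). Most like *Cav2* were *Dync1li1* (0.81), *Cav1* (0.81) and *Cd2ap* (0.80). *Cavin1* was most like *Ehd2* (0.87), *Mprip* (0.87) and *Rock2* (0.87), and *Ehd2* most like *Cavin1* (0.87), *Tgfb1i1* (0.84) and *Rras* (0.84). For *Cavin2* these were *Sin3a* (0.92), *Rassf9* (0.87) and *Enpp4* (0.86), each highest, like *Cavin2*, in LEC with its 3, 1 and 12 cells. For *Cavin3* they were *Pls3* (0.88), *Nr1d1* (0.83) and *Afap1* (0.82), and for *Pacsin2*, with lower values, *Msra* (0.74), *Vps29* (0.70) and *Cyp4f13* (0.69).

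**Figure D3:**
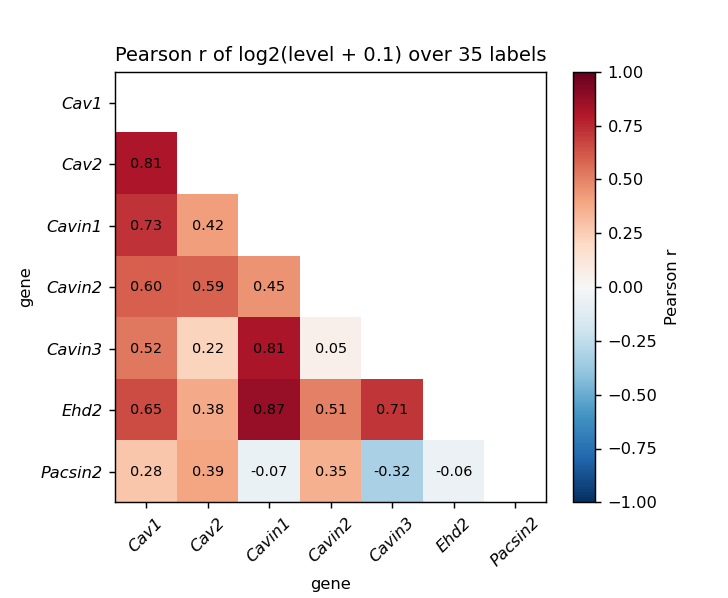
Pearson's r of log2(level + 0.1) over the 35 labels for each pair of caveolae genes, with the mean level of the 3 libraries per label. *Cavin1* with *Ehd2* (0.87) and *Cav1* with *Cav2* (0.81) are high, and *Pacsin2* with *Cavin3* is lowest (-0.32).

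The second question was whether the genes differ between *Angpt1*ΔNC and control cells of a type. UMIs were summed per library over SC, blood endothelium (EC2 to EC4), the TM labels (TM1 to TM11), mural cells (clusters 19 to 21) and limbal and corneal epithelium (clusters 4 and 5). The sums were tested with edgeR's quasi-likelihood test over all genes, with Benjamini-Hochberg adjusted p-values and a threshold of 0.05. Levels of these sums are given as CPM, the UMIs per 1000000 of the library size after TMM scaling. The test has 1 residual degree of freedom and takes the lone *Angpt1*ΔNC library to vary like the controls. In sums over labels, fewer cells of a label and less RNA per cell cannot be told apart.

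In SC none of the 7 genes passed the test, where 3.03% of all genes did (194 of 6397, with 860 at an unadjusted p under 0.05). *Cav1* had 130, 188 and 65 UMIs, or 234, 280 and 477 CPM, so that *Angpt1*ΔNC lay above both controls. Its log2 change was 0.89 (SE 0.27, unadjusted p = 0.00277, edgeR adjusted p = 0.0708), and with DESeq2 the adjusted p was 0.435. Only 1 of the 7, *Cav1*, had an unadjusted p under 0.05. The other 6 genes had log2 changes from -0.86 (*Pacsin2*, 49, 49 and 6 UMIs) to 0.56 (*Cav2*). The 15 cells of *Angpt1*ΔNC limit what could be detected. Dissociation stress genes summed to 38.0, 34.9 and 24.6 UMIs per 10,000 and mural markers to 1.12, 2.097 and 2.76 in SC, and their part in these values was not tested.

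In blood endothelium 2 of the 7 genes passed, where 9.56% of all genes did. *Cav2* fell, with 105, 117 and 67.2 CPM (219, 286 and 95 UMIs) and a log2 change of -0.73 (SE 0.20, edgeR adjusted p = 0.0378). *Ehd2* rose, with 76.0, 107 and 154 CPM and a log2 change of 0.75 (SE 0.21, edgeR adjusted p = 0.0423). For both, *Angpt1*ΔNC lay outside the controls, and for *Ehd2* the controls themselves lay apart, so that its log2 change was 0.52 without control replicate 1 and 1.02 without control replicate 2. *Cav1*, at 126, 138 and 184 CPM, did not pass (log2 change 0.47, edgeR adjusted p = 0.104), nor did the other 4. The blood endothelial labels were not equally represented, with EC3 making up 48.0, 44.9 and 31.9% of the cells. With equal numbers of cells per label the log2 changes were -0.64 for *Cav2* (edgeR adjusted p = 0.0381) and 0.65 for *Ehd2* (0.0121), where 11.3% of genes passed. The labels differed when tested alone. *Ehd2* rose in EC2 (log2 change 1.45, edgeR adjusted p = 0.000447, where 5.36% of genes passed) and EC3 (0.98, 0.00791, 7.30%) and was at 0.027 in EC4 (0.974). *Cav2* was at -1.19 in EC4 (edgeR adjusted p = 0.0616), -0.44 in EC3 (0.404) and 0.020 in EC2 (0.995). In male-typed cells alone, where 9.83% of genes passed, *Ehd2* rose by 0.84 (edgeR adjusted p = 0.0352), *Cav1* by 0.71 (0.0295), and *Cav2* was at -0.42 (0.373). DESeq2 called neither *Cav2* (adjusted p = 0.41) nor *Ehd2* (0.325). Stromal markers summed to 0.590, 0.849 and 4.19 UMIs per 10,000 in these cells, with all 5 found in *Angpt1*ΔNC, and dissociation stress genes to 73.2, 53.5 and 52.8, and their part in the result was not tested.

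In mural cells, clusters 19 to 21 together, 3 of the 7 genes passed, where 16.4% of all genes did, and all 3 were lower in *Angpt1*ΔNC. *Cavin2* had 69.7, 70.4 and 28.2 CPM (log2 change -1.31, SE 0.21, edgeR adjusted p = 0.000399). *Cav2* had 49.9, 53.2 and 28.8 CPM (-0.84, SE 0.22, edgeR adjusted p = 0.0142) and *Cav1* 231, 253 and 171 CPM (-0.50, SE 0.15, edgeR adjusted p = 0.0319). Cluster 19, the label with the highest *Cav1* of all and nearly all mural *Cavin2*, made up 37.4 and 42.1% of mural cells in the controls and 15.7% in *Angpt1*ΔNC (387 of 1036, 499 of 1185 and 54 of 345). With equal numbers of cells per label none of the 3 passed, and the log2 changes were -0.52 for *Cavin2*, -0.44 for *Cav2* and 0.21 for *Cav1*. In that setting edgeR called 0 of 9188 genes, with 1391 at an unadjusted p under 0.05. Within cluster 19 alone the values were -0.30 for *Cavin2*, -0.067 for *Cav2* and 0.12 for *Cav1*, none of which passed (0.966% of genes did). Among the 3 labels alone, only *Cavin3* in cluster 21 passed, with 683, 780 and 454 CPM (log2 change -0.69, edgeR adjusted p = 0.0382, 8.21% of genes). *Cav2* stood at -0.98 in cluster 20 and -1.06 in cluster 21 on 9 and 5 UMIs in *Angpt1*ΔNC, and neither passed. Dissociation stress genes summed to 103, 95.7 and 56.4 UMIs per 10,000 and mural markers to 212, 210 and 147, and the part of the former was not tested.

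In limbal and corneal epithelium *Cavin2* was too low to be tested, and 1 of the other 6 genes passed, where 5.72% of all genes did. *Cav2* fell, with 80.1, 95.4 and 51.2 CPM (log2 change -0.78, SE 0.18, edgeR adjusted p = 0.0423), and with equal numbers of cells per label its log2 change was -0.62 (edgeR adjusted p = 0.0439, where 6.2% of genes passed). *Cav1* went the other way, with 48.6, 55.8 and 82.2 CPM (log2 change 0.65, edgeR adjusted p = 0.0542), which missed the threshold. Corneal cluster 5 made up 58.1, 49.9 and 29.6% of these cells. In cluster 5 alone *Cav2* was at -0.84 (edgeR adjusted p = 0.0897) and *Cav1* at 0.82 (0.0701), and in limbal cluster 4 alone at -0.39 (0.175) and 0.17 (0.628), so neither gene passed in a single label (2.23 and 11.9% of genes did). In male-typed cells the *Cav2* call was lost (log2 change -0.74, edgeR adjusted p = 0.0711, where 3.85% of genes passed). Dissociation stress genes summed to 40.6, 37.2 and 23.7 UMIs per 10,000 in these cells and epithelial markers to 252, 221 and 191, both lowest in *Angpt1*ΔNC, and their part in the result was not tested.

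In the TM labels none of the 7 genes passed, where 8.97% of all genes did. *Cav1* had 24.6, 42.7 and 53.2 CPM (log2 change 0.66, edgeR adjusted p = 0.155), with the controls farther apart than control replicate 2 and *Angpt1*ΔNC. *Cavin1*, by contrast, was close in the controls at 101 and 99.5 CPM and stood at 136 in *Angpt1*ΔNC (0.44, edgeR adjusted p = 0.0901). *Cavin2* had 4.09, 3.06 and 4.38 CPM (77, 68 and 68 UMIs) and a log2 change of 0.30 (edgeR adjusted p = 0.577). In male-typed cells alone 13.1% of all genes passed, among them *Cavin1* (log2 change 0.63, edgeR adjusted p = 0.0094) and *Cavin2* (1.21, 0.0277). In TM3 to TM11 alone, without TM1 and TM2, none of the 7 passed where 15.5% of genes did. The log2 changes of *Cav1* and *Cavin1* were 0.49 (edgeR adjusted p = 0.114) and 0.44 (0.0747). Dissociation stress genes summed to 60.4, 51.0 and 41.2 UMIs per 10,000 in TM1 to TM11, and their part in these values was not tested.

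**Figure D4:**
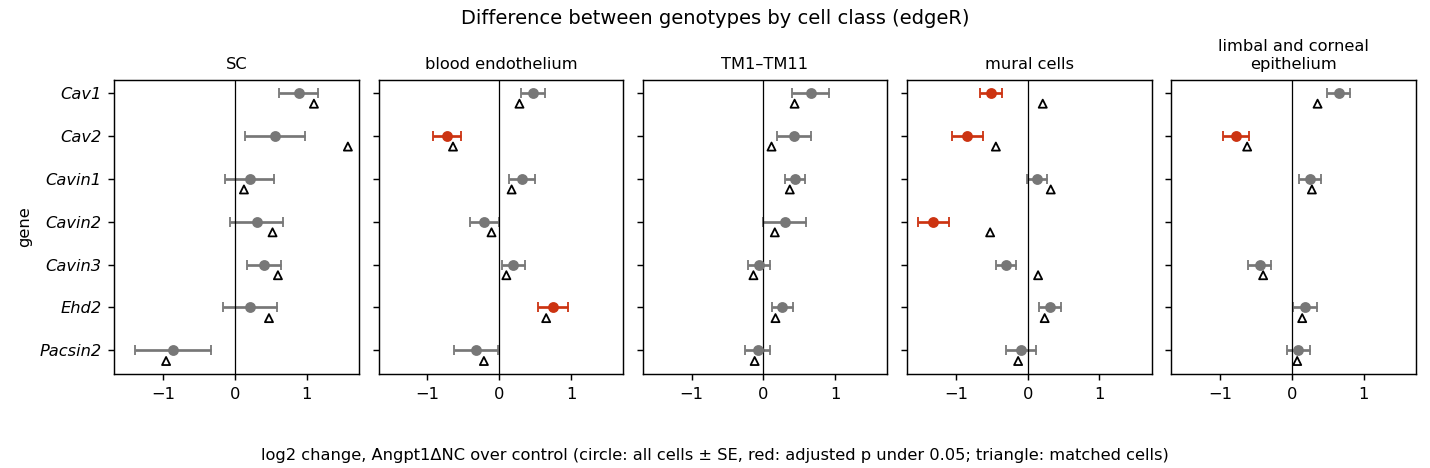
Log2 change of each caveolae gene between *Angpt1*ΔNC and control in 5 cell classes (horizontal axis; circles: all cells, bars ± SE, red where the edgeR adjusted p is under 0.05; triangles: equal numbers of cells per label). *Cav2* is red and below 0 in blood endothelium, mural cells and epithelium, and the mural triangles of *Cav1* and *Cavin2* lie far from their circles.

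Whether the genotype difference itself varied between the 5 classes was tested with an interaction term over the 15 sums. It passed for 4 of the 7 genes, *Cav1* (edgeR adjusted p = 0.00664), *Cav2* (0.00863), *Cavin3* (0.0136) and *Cavin2* (0.0317), where 10.3% of all genes passed. With equal numbers of cells per label it passed for none of the 7, and the smallest edgeR adjusted p among them was 0.084 for *Cav2*.

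*Cav2* and its neighbor *Cav1* were then followed over all labels, a comparison chosen after their values were seen and given without a test. In 32 labels with at least 20 cells in every library, a gene was counted where its mean level was at least 0.2. *Cav2* was so in 13 labels, and *Angpt1*ΔNC lay below both controls in 10 of them and above both in 2 (cluster 3 and EC2). Over all genes, 43.7% of such pairs of gene and label lay below both controls and 34.1% above both. *Cav1* lay above both controls in 11 of 21 labels and below both in 4, *Cavin1* above in 22 of 28 and below in 4, and *Ehd2* above in 12 of 25 and below in 9. *Cavin3* lay below in 17 of 29 and above in 6, *Pacsin2* below in 10 of 21 and above in 6, and *Cavin2* below in 4 of 6 and above in 2. All labels of a library share that library, so these counts are not independent.

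The number of *Cav2* UMIs per 100 *Cav1* UMIs compares the pair within the same cells. Over 21 labels with at least 20 *Cav1* UMIs in each library, it was lower in *Angpt1*ΔNC than in both controls in 14, higher in 2 and between them in 5. Among all genes, the UMIs per *Cav1* UMI were below both controls in 54.5% of pairs of gene and label. Corneal epithelial cluster 5 had 290, 312 and 96.2 *Cav2* UMIs per 100 *Cav1* UMIs. EC4 had 75, 56.3 and 24.1 and EC3 108, 125 and 62.1. In SC the ratio was 36.9, 22.9 and 23.1, with *Angpt1*ΔNC between the controls, and in cluster 19 it was 20, 19 and 17.

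**Figure D5:**
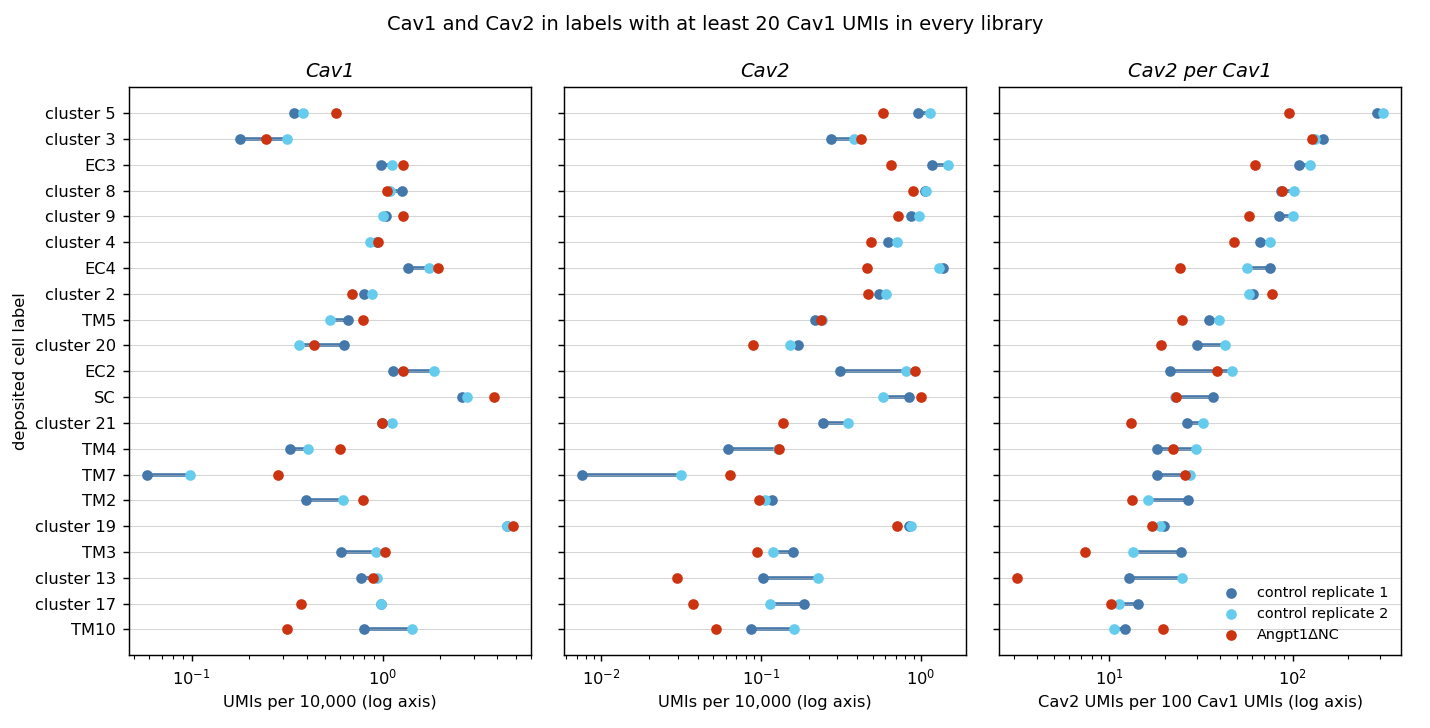
*Cav1* level, *Cav2* level (UMIs per 10,000) and *Cav2* UMIs per 100 *Cav1* UMIs (log axes) in the 21 labels with at least 20 *Cav1* UMIs in each library; points are libraries and lines join the controls. The *Angpt1*ΔNC point of the right panel lies left of both controls in 14 labels, cluster 5, EC3 and EC4 among them.

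Genes related to the caveolae genes were read from 3 lists. Of 7 relatives (other caveolins, cavins, EHD proteins and pacsins), *Ehd1* (5.75, 5.41 and 3.49 UMIs per 10,000), *Ehd4* (3.102, 4.32 and 1.84) and *Ehd3* (0.0484, 0.241 and 0.596) were found in SC. The muscle forms *Cav3* and *Cavin4* had no UMI there. Of 3 relatives tested in SC none passed. In blood endothelium 1 of 4 rose (*Ehd3*, log2 change 0.98), in mural cells 1 of 5 rose (*Ehd3*, 0.74) and 1 fell (*Pacsin3*, -0.94), in the TM labels 1 of 7 rose (*Cavin4*, 3.32, on 4, 1 and 20 UMIs) and 1 fell (*Ehd4*, -0.59), and in epithelium none of 3 passed. The background shares are those given for each class. With equal numbers of cells per label the mural calls of *Ehd3* and *Pacsin3* were lost, since edgeR called no gene there.

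Of 12 caveola-associated genes, the highest levels in SC were those of *Plvap*, which forms the diaphragm of endothelial pits (9.07, 9.89 and 6.22), *Insr*, the insulin receptor (0.557, 0.421 and 1.82), *Nos3*, the endothelial nitric oxide synthase that binds CAV1 (0.830, 0.844 and 0.879), and *Flot1*, a flotillin of membrane rafts (0.630, 1.10 and 0.476). None of 7 passed in SC. *Plvap* fell in blood endothelium (2833, 2836 and 1725 CPM, log2 change -0.72, SE 0.14, edgeR adjusted p = 0.00674) and in mural cells (-1.35, on 89, 113 and 10 UMIs). The authors give *Plvap* as high in EC3, which made up 48.0, 44.9 and 31.9% of the blood endothelial cells. Whether that share played a part in the lower *Plvap* was not tested. The mural call was lost with equal numbers of cells per label, where edgeR called no gene. *Flna*, an actin cross-linker that binds CAV1, rose in blood endothelium (1.14, edgeR adjusted p = 0.0108) and in epithelium (0.89, 0.0159). In the TM labels *Src*, a kinase that phosphorylates CAV1, rose (0.79) and *Flot1* fell (-0.62). Altogether 2 of 9 passed in blood endothelium, 1 of 10 in mural cells, 2 of 12 in the TM labels and 1 of 11 in epithelium. The shares over all genes in these classes were 9.56, 16.4, 8.97 and 5.72%.

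The 4 chromosomal neighbors of *Cav1* and *Cav2* were *Capza2* (3.64, 3.42 and 2.32 UMIs per 10,000 in SC), *Tes* (0.559, 1.18 and 1.39), *Met* (0.319, 0.357 and 0.392) and *St7* (0.145, 0.0886 and 0.165). Only *Met* in the TM labels passed, with 16.4, 14.9 and 30.0 CPM (log2 change 0.94, SE 0.15, edgeR adjusted p = 0.00859). In blood endothelium, mural cells and epithelium, the classes in which *Cav2* fell, none of the 4 neighbors passed, where 9.56, 16.4 and 5.72% of all genes did. Log2 changes were above 0 for 0 of 4 in blood endothelium (median -0.34), 0 of 4 in mural cells (-0.22) and 1 of 4 in epithelium (-0.11). The medians of all genes there were -0.025, -0.048 and -0.015. The interaction term passed for *Met* and *Tes*, where 10.3% of all genes passed, and with equal numbers of cells per label for *Met* only.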

How the data were processed

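The deposited counts are, per the file headers, UMIs per gene and called cell, which the authors made with Cell Ranger against mm10 and left without normalization (version 2.1.1 in the submitters' processing notes, 3.0.2 in the matrix headers). Cells and labels were taken from the authors' table, made with Seurat 3.1.3 after filters and doublet removal. The integrated natural log values deposited by the authors, and not UMIs, fill that table and were not used.

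The 7 genes and the lists were chosen with earlier results of these data known. UMIs per 10,000 were averaged over cells to give levels. Shares carry exact 95% intervals, a background from cluster 22, and a limit of 3 counts where 0. Genotypes were compared on UMIs summed per library and class with edgeR 4.0.16 (R 4.3.3, TMM factors, filterByExpr, quasi-likelihood F-test, Benjamini-Hochberg adjustment over all genes tested), after a test on simulated data. Alternatives were DESeq2 1.42.0, DESeq2 size factors, no filter, matched cells (equal numbers per label), male-typed cells (no *Xist* UMI, at least 1 of a Y-linked gene), thinning to 2000 UMIs, leaving out a control, and, added after seeing the data, single labels and TM3 to TM11 without TM1 and TM2.

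Named are the 7 genes, for each the 3 genes with the highest r over labels among genes with a level of at least 0.5 in a label, and, from each list, the 4 highest in SC and all that passed in a class. Positions are from GENCODE M21 and promoters from RefSeq. Python 3.11.15, numpy 2.4.6, pandas 2.3.3, scipy 1.17.1 and matplotlib 3.10.9 were used. Nothing in the labels says that a pool is more than 1 preparation. The p-values rest on the spread between the 2 control libraries, since the lone *Angpt1*ΔNC library adds none.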

Additional observations from a re-analysis of the deposited data

Results flagged for a closer look

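For 4 of the 7 genes, where 10.3% of all genes passed, a test of the difference itself found that the change between genotypes was not the same in SC, blood endothelium, the TM labels, mural cells and epithelium. The edgeR interaction term had an adjusted p of 0.00664 for *Cav1*, whose log2 changes ran from -0.50 in mural cells to 0.89 in SC. For *Cav2* it was 0.00863, with log2 changes from -0.84 in mural cells to 0.56 in SC. For *Cavin2* it was 0.0317, with log2 changes from -1.31 in mural cells to 0.30 in SC. For *Cavin3* it was 0.0136, with log2 changes from -0.45 in epithelium to 0.40 in SC. With equal numbers of cells per label none of the 4 passed, at adjusted p-values of 0.783, 0.084, 0.839 and 0.212 for *Cav1*, *Cav2*, *Cavin2* and *Cavin3*.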

How the results depend on the processing

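The precision is limited by a single *Angpt1*ΔNC library, 1 residual degree of freedom and 15 SC cells in that library. DESeq2 gave an adjusted p to 6 of the 7 genes in blood endothelium, where 0 passed in place of 2. In mural cells 1 passed in place of 3. DESeq2 gave an adjusted p to fewer genes than edgeR, so shares are given beside the counts. In SC it called 45 of 622 genes (7.23%) against 194 of 6397 (3.03%), with an adjusted p for 2 of the 7. It called 267 of 4550 (5.87%) in blood endothelium against 887 of 9280 (9.56%), and 637 of 12184 (5.23%) in the TM labels against 1251 of 13942 (8.97%). It called 536 of 6164 (8.7%) in mural cells against 1898 of 11606 (16.4%), and 439 of 9807 (4.48%) in epithelium against 706 of 12341 (5.72%). With matched cells (equal numbers per label), 0 of the 7 passed in mural cells in place of 3 and 0 in the interaction in place of 4, and 39 genes were called in SC, 0 in mural cells by edgeR (1391 at an unadjusted p under 0.05; DESeq2 was not run on matched cells) and 560 in the interaction in place of 1424. Without a filter on low counts 1 of the 7 (*Cav1*) passed in the TM labels and 2 in epithelium. In that setting 2441 genes were called in the TM labels (12.3%), 1814 in epithelium (9.89%) and 2219 in the interaction (10.3%). With DESeq2 size factors 3 passed in blood endothelium (*Cav1* added) and 2 in epithelium (*Cav1* added), and 1344 genes were called in blood endothelium. In male-typed cells 2 passed in the TM labels (1765 genes called), 4 in mural cells (*Cavin3* added, 1511 genes called) and 0 in epithelium (465 genes called). In labels alone, 1 passed in EC2, 1 in EC3, 0 in EC4, 0 in clusters 19 and 20, 1 in cluster 21, and 0 in clusters 4 and 5, and without TM1 and TM2 0 passed in the TM labels, as with them. Thinning to 2000 UMIs left 4 of 7 genes higher in SC than in TM labels in every library and took the median share of positive SC cells from 52.2% to 20%.

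Some log2 changes turned sign. In EC2 alone *Cav2* was at 0.020, *Cavin2* at 0.044 and *Cavin3* at -0.26, and in EC4 alone *Cavin1* was at -0.11, *Cavin3* at -0.069 and *Pacsin2* at 0.050. In male-typed cells *Cavin3* was at 0.094 in the TM labels and *Cavin1* at -0.037 in mural cells. With matched mural cells *Cav1* was at 0.21 and *Cavin3* at 0.15. In cluster 19 alone *Cav1* was at 0.12, *Cavin3* at 0.29, *Ehd2* at -0.31 and *Pacsin2* at 0.021, in cluster 20 *Cavin3* at 0.19 and *Pacsin2* at 0.14, in cluster 21 *Cav1* at 0.11, and in cluster 4 *Cavin3* at 0.032 and *Pacsin2* at -0.15. The cause was not tested. Leaving out a control leaves 1 library against 1 and gives no test. It moved the number of genes above EC2 to EC4 in SC of every library between 3 and 4, and the log2 change of *Cav1* in the TM labels between 0.32 and 1.12. SC was not compared in male-typed cells, since *Angpt1*ΔNC held 2 of them. No paired analysis was possible because the groups share fewer than 2 replicate numbers.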
